A study of Arabidopsis thaliana with 12 samples.

Results

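Main inflorescence stems of Arabidopsis thaliana whose libraries are labelled fer were compared with wild type stems. The comparison uses 6 of the 12 RNA libraries of a study of 4 genotypes, chosen by their titles, with 3 libraries labelled fer and 3 labelled wild type (WT), each a biological replicate by its title. The wild type was the accession Col-0, and the genotype label of the compared libraries is fer4, an allele of the receptor kinase gene FERONIA (FER). The remaining 6 libraries were the CCR1 mutant ccr1-3 (ccr), with a lesion in a lignin pathway gene, and the double mutant ccr1-3/fer4 (ccrfer), of which the labels of replicates 2 and 3 read fer5 and fer6. They serve here only for side-by-side values and for the shared estimate of spread. All plants were 2 months old, and RNA was taken as total RNA from the main stem and made into libraries with a stranded mRNA kit. The labels give neither the number of plants in a library nor the time of day of harvest. By its title and design the series asks what FERONIA contributes to expression changes of ccr1-3 stems, and here the libraries labelled fer are compared with WT.

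Expression was deposited as FPKM, fragment counts scaled to transcript length and library depth. Of 27655 genes, 18428 reached an FPKM of 1 or more in at least 3 of the 12 libraries and were tested. Differences are labelled fer minus WT on the log2(FPKM + 1) scale, and a gene is called higher or lower at an adjusted p under 0.05 (limma, Benjamini-Hochberg over the tested genes).

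FERONIA is a receptor kinase of the plasma membrane that binds RALF peptides and pectin and is known for sensing the state of the cell wall, for growth control and for immune signalling. In a stem, the vascular cambium divides to give xylem, and xylem vessels and fibres then lay down a secondary wall of cellulose, xylan and lignin before the vessel cells die in an ordered way. Older stem tissue senesces, which returns nutrients to seeds and younger organs.

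The WT libraries held 59163266 to 79937760 reads and the libraries labelled fer 56884740 (replicate 2), 80776792 and 105661460. Of the reads after trimming, 93.3% to 94.1% were mapped in WT and 91.4% to 92.7% in the libraries labelled fer. AT2G01021, a gene beside the 5.8S ribosomal RNA gene, was at 182868, 332845 and 312368 FPKM in WT and at 1429630, 15147300 and 8613970 in the libraries labelled fer. The libraries labelled fer all lay above WT for it. Because this level moves with the label and differs among the libraries labelled fer, calls on named genes that ended or appeared when it entered the fit as a covariate are pointed out. Across tested genes, a WT library and a library labelled fer correlated at r values of 0.860 to 0.882. Genes that every plant uses can be listed at exactly 0 in this table. CAT3 (AT1G20620), a catalase gene, was listed at 0 in all 3 WT libraries and stood at 3198, 2913 and 2917 in those labelled fer. RR3 (AT2G41310), a response regulator gene of cytokinin signalling, stood at 6599, 7092 and 6146 in the labelled fer libraries but was listed at 0 in the other 9, as was the chloroplast gene ATCG00490 for the large subunit of Rubisco. A gene listed at 0 in a whole genotype is therefore given by its values, with no fold.

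The libraries labelled fer differed from WT in a large part of the tested genes. Of the 18428, 5237 (28.4%) were called higher and 4281 (23.2%) lower, and the 2 sets of libraries did not overlap for 11677 (63.4%). Of the called genes, 1836 (9.96% of those tested) were higher by 2-fold or more and 1252 (6.79%) lower by 2-fold or more, on the log2(FPKM + 1) scale. The median difference of all tested genes was 0.04. These shares are the background against which the counts of gene groups below are read. Some members that are low in WT passed the filter on low values through the genotypes where they are high, so the counts and medians of groups are descriptions. Genes of the woody wall, the cambium, jasmonate and glucosinolates were higher, and most genes of senescence, developmental cell death, phosphate starvation and cold were lower, as the plot of differences against expression level and the plot of gene groups show.

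**Figure D1:**
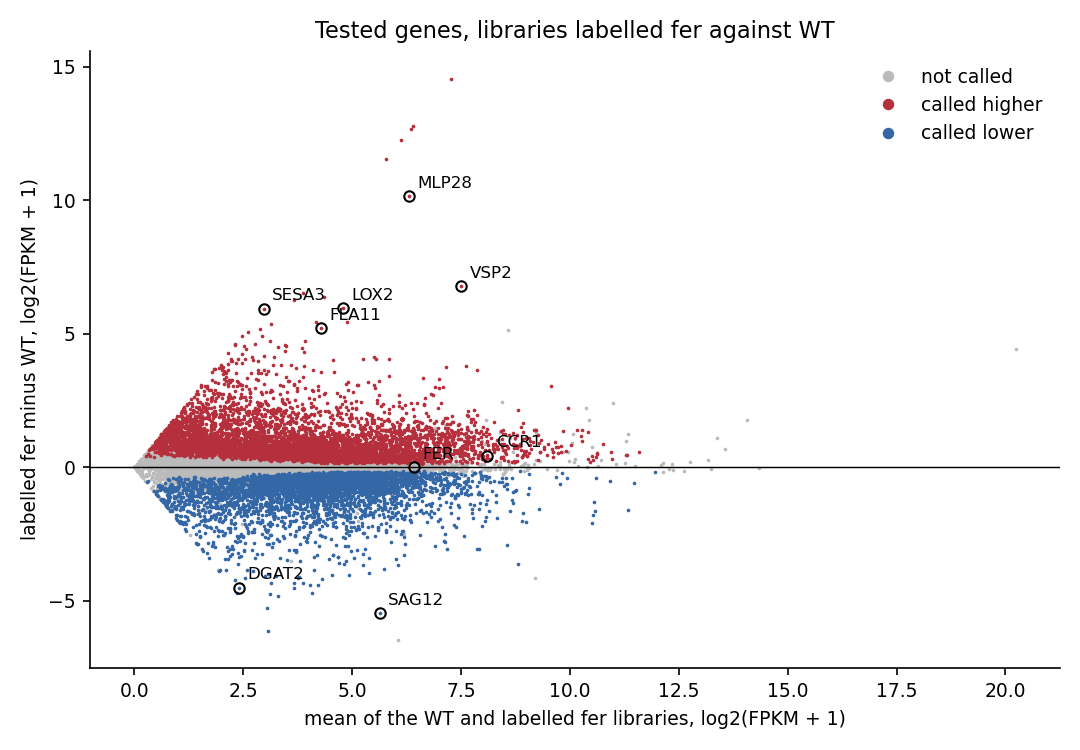
Each point is 1 of the 18428 tested genes, with the mean log2(FPKM + 1) of the 6 libraries on the x axis and the difference between the libraries labelled fer and WT on the y axis, in red where called higher, blue where called lower and grey where not called. FER lies at a difference of 0.00, DGAT2 at -4.51, SAG12 at -5.46 and MLP28 at 10.15.

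The targeted gene was examined first. FER (AT3G51550, chromosome 3) was at 85.9, 83.5 and 83.0 FPKM in WT, against 85.1, 83.1 and 84.0 in the libraries labelled fer, so the groups overlapped. Its difference was 0.00 (SE 0.197, adjusted p = 0.997), and with the AT2G01021 covariate it was -0.41 (adjusted p = 0.0355). In ccrfer the same gene was at 0.894, 0.159 and 1.49, and the libraries labelled fer exceeded ccrfer by 5.59 (SE 0.197, adjusted p = 1.94e-09). The label fer is therefore not borne out by the FER transcript level, and directions below are those of the libraries so labelled. These values count reads over the gene and do not show whether an intact receptor is made.

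The genes beside FER did differ. DGAT2 (AT3G51520), a diacylglycerol acyltransferase gene 3 places before FER, was at 23.7, 24.7 and 24.6 in WT, against 0.374, 0 and 0 in the labelled fer libraries. The difference was -4.51, SE 0.141, adjusted p = 1.91e-10. AT3G51530, 2 places before FER, was at 5.85, 6.60 and 6.95 in WT, against 0.0316, 0 and 0 in the labelled fer libraries (-2.88, SE 0.133, adjusted p = 4.49e-09). Both were also at or near 0 in ccrfer and not in ccr, where DGAT2 had a mean of 19.7 ± 1.54 (SD, n = 3). AT3G51540, next to FER, was at 0.626, 0.519 and 0.415 in WT and listed at 0 in all libraries labelled fer, and it was too low to be tested. On the other side AT3G51560 was at 0, 0 and 0.0201 in WT, against 3.43, 4.17 and 4.05 in the labelled fer libraries (2.28, SE 0.140, adjusted p = 5.85e-08). Farther out, LTP5 (AT3G51600), a lipid transfer protein gene, was called higher (0.86, SE 0.243, adjusted p = 0.0107). The remaining tested genes within 6 places of FER had no call, with differences of 0.38 for TMT3, 0.40 for AT3G51500, 0.26 for AT3G51510, -0.04 for AT3G51580 and 0.17 for NPU, and adjusted p of 0.0702 to 0.716. Of these, AT3G51500 passed with the AT2G01021 covariate and with only the compared genotypes in the fit, AT3G51510 without fer replicate 3, and NPU after quantile normalization or without WT replicate 3.

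**Figure D2:**
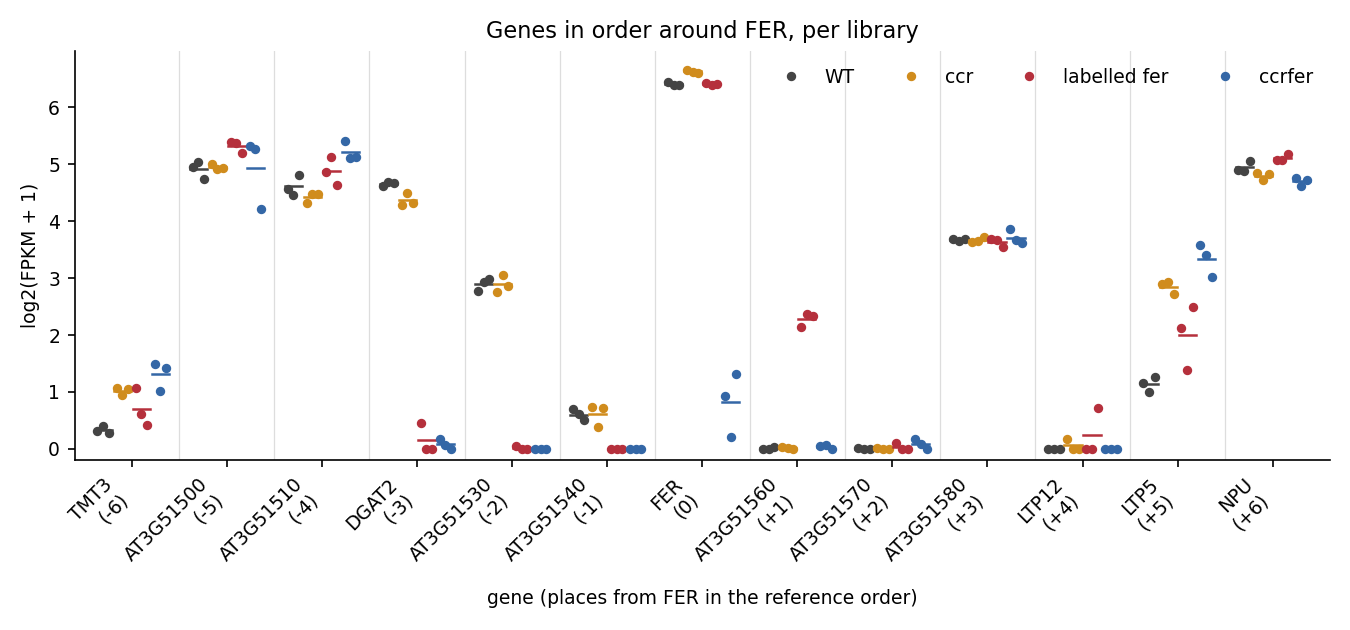
FPKM on a log2(FPKM + 1) axis for the 6 genes on each side of FER and for FER itself, in their order along chromosome 3, with 1 point per library and a short line at the mean of each genotype. FER is level in WT and the libraries labelled fer, DGAT2 and AT3G51530 fall to or near 0 in the libraries labelled fer and ccrfer, and AT3G51560 stands up only in the libraries labelled fer, at 3.43 to 4.17 FPKM.

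Genes that build the cellulose and xylan of the secondary wall were all higher in the libraries labelled fer, 21 of 21 tested, against 28.4% of all genes. Their median difference was 3.25, beside 0.04 for all genes. FLA11 (AT5G03170), a fasciclin-like arabinogalactan protein gene of fibres, was at 1.84, 2.41 and 2.46 in WT, against 120.4, 115 and 117 in the labelled fer libraries. The difference was 5.20, SE 0.0707, adjusted p = 1.78e-13. IRX3 (AT5G17420), a cellulose synthase of the secondary wall, was at 1.41, 1.12 and 1.78 in WT, against 52.3, 47.5 and 47.6 in the labelled fer libraries. Every library labelled fer lay above every WT library (4.37, SE 0.0899, adjusted p = 5.53e-12). Its partner synthase genes IRX1 (AT4G18780) and CESA4 (AT5G44030) rose by 4.16 and 3.82, and CTL2, a chitinase-like gene active with cellulose of woody walls, by 4.02. TED6 (AT1G43790), whose protein binds these synthases in differentiating vessels, was at 0.334, 0.166 and 0.309 in WT, against 25.1, 30.2 and 24.1 in the labelled fer libraries (4.43, SE 0.142, adjusted p = 2.26e-10).

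The same 21 genes were higher than WT in ccr and in ccrfer too, with medians of 3.69 and 4.32, and these comparisons share the WT libraries. Against WT, 24.0% of all tested genes were called higher in ccr and 24.9% in ccrfer, and the shares called lower were 19.8% and 22.8%. Set directly against ccr, 12 of the 21 were lower in the libraries labelled fer and 1 was higher, where 18.5% of all genes were called lower and 20.5% higher. Against ccrfer 18 were lower and 1 higher, where 19.3% were called lower and 21.3% higher. FLA11 averaged 136 ± 2.85 in ccr and 292 ± 8.70 in ccrfer (FPKM, mean ± SD, n = 3), above the 118 ± 2.48 of the libraries labelled fer. The member called higher than both was TED6, by 2.81 against ccr and 0.92 against ccrfer.

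Transcription factors that switch on the secondary wall were mostly higher. Of 20 tested of 22 regulators, 16 were higher and 1 lower, with a median of 1.11. The largest differences were those of AtMYB103 (3.63), NAC012 (3.19), the fibre master switch also known as SND1, and MYB85 (2.21), a lignin regulator. MYB43, MYB20 and NAC073 followed at 2.07, 2.03 and 1.91. The member that was lower was XND1 (AT5G64530), a NAC factor known to hold back xylem differentiation. XND1 was at 65.3, 68.1 and 66.8 in WT, against 21.8, 22.5 and 20.9 in the labelled fer libraries, with no overlap (-1.58, SE 0.0726, adjusted p = 4.44e-09). NAC101 (VND6), a vessel switch, was called higher by 1.68, a call lost without WT replicate 1, fer replicate 1 or fer replicate 3. Compared with the shared WT libraries, 16 regulators were higher and none lower in ccr (median 1.32). In ccrfer 15 were higher and 1 lower (median 1.51). Set directly against ccr, 1 regulator was higher and 5 lower in the libraries labelled fer, and against ccrfer 2 were higher and 8 lower.

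Lignin genes were higher in 23 of 24 tested of 25, with a median of 1.51. PAL1 (AT2G37040), a phenylalanine ammonia-lyase at the entry of the pathway, was at 109.8, 106 and 99.9 in WT, against 494, 449 and 453 in the labelled fer libraries (2.13, SE 0.0809, adjusted p = 8.51e-10). IRX12 (AT2G38080), a lignin-polymerizing laccase also known as LAC4, was at 1.02, 1.10 and 1.69 in WT, against 52.5, 50.6 and 55.8 in the labelled fer libraries (4.58, SE 0.0967, adjusted p = 7.02e-12). LAC11 (AT5G03260), a second laccase, was at 0.0192, 0.143 and 0.191 in WT, against 15.4, 13.9 and 13.2 in the labelled fer libraries. That is from near 0 in WT to above 13 FPKM in each library labelled fer (3.76, SE 0.152, adjusted p = 1.39e-09). In ccr its mean was 2.81 ± 0.384 and in ccrfer 13.5 ± 2.84. LAC17 (AT5G60020) rose by 3.19, the peroxidase gene PER64 by 3.03 and PAL4 by 2.22. The peroxidase gene AT5G64120 was the exception, at 40.5, 38.8 and 37.0 in WT, against 24.2, 22.3 and 24.7 in the labelled fer libraries (-0.68, SE 0.137, adjusted p = 0.00123).

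4CL2 (AT3G21240), a 4-coumarate CoA ligase gene of the middle of the pathway, was at 21.97, 23.6 and 21.7 in WT, against 37.9, 38.1 and 34.0 in the labelled fer libraries (0.69, SE 0.0690, adjusted p = 4.85e-06). It averaged 106 ± 5.36 in ccr and 111 ± 7.36 in ccrfer, and the labelled fer minus ccr difference was -1.51 (adjusted p = 1.11e-08). CCR1 (AT1G15950), cinnamoyl-CoA reductase, was at 256, 231 and 222 in WT, against 354, 301 and 302 in the labelled fer libraries. It was called higher (0.43, SE 0.104, adjusted p = 0.00422), but not after quantile normalization. Against ccr the lignin list split, with 11 members higher and 8 lower, and against ccrfer 4 were higher and 10 lower.

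Many lignin gene promoters are known to carry AC elements, short sites that wall MYB factors bind. The promoters of 4CL2, LAC11 and LAC17 are shown, chosen among lignin genes with such a site that were called higher than WT. These genes were ranked by the number of sites in the printed bases and then by the difference from WT. The runs below are the 200 bases before the annotated gene start in RefSeq assembly TAIR10.1, written along the gene's strand, and capitals mark the AC elements. 4CL2 is from chr3:7457405-7457604 on the minus strand, LAC11 from chr5:779425-779624 on the minus strand and LAC17 from chr5:24167796-24167995 on the plus strand.
4CL2: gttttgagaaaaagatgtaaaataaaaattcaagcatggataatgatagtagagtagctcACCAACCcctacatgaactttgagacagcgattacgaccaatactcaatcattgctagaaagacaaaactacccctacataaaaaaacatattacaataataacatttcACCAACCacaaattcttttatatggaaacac
LAC11: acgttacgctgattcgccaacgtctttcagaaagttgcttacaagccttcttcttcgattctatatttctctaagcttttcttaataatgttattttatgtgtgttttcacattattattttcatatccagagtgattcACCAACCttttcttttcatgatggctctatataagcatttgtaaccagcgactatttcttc
LAC17: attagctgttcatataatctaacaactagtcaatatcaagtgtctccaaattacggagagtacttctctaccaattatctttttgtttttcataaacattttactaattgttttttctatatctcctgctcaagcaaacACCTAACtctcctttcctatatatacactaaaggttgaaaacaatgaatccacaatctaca
The search took the motif ACCTACC, the variant ACCAACC and the variant ACCTAAC, on both strands of the 250 bases before the gene start. At least 1 of them was found for 9 of the 25 lignin genes (36.0%), which were 4CL2, HCT, CYP98A3, CCoAOMT1, CCR1, CAD5, LAC11, LAC17 and PRX52, and for 1679 of 27443 protein-coding genes (6.12%). A match describes the letters in this window only.

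Cambium genes were higher in 11 of 12, with a median of 1.50. PXY (AT5G61480), the receptor kinase that keeps the cambium dividing, was at 21.7, 21.8 and 21.1 in WT, against 73.2, 72.5 and 69.9 in the labelled fer libraries (1.69, SE 0.0528, adjusted p = 1.83e-10). CLE41, the peptide ligand of PXY, rose by 1.56, and WOX4 (AT1G46480), the homeobox gene downstream of PXY, was at 1.50, 1.06 and 1.65 in WT, against 8.55, 7.63 and 8.48 in the labelled fer libraries (1.95, SE 0.164, adjusted p = 9.64e-07). All libraries labelled fer stood above WT for these genes. ANT, LBD4 and HB-8 rose by 2.38, 2.21 and 1.72. Cambium genes were also higher than in the shared WT libraries in ccr (10 of 12, median 0.716) and in ccrfer (11 of 12, median 1.505). Against ccr 6 cambium genes were higher and 2 lower, and against ccrfer 1 was higher and 3 lower.

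Cell division genes were higher in 15 of 16 tested of 23, with a median of 1.01. CYCD3;1 (AT4G34160), a D-type cyclin gene, was at 0.838, 0.830 and 0.902 in WT, against 12.8, 11.2 and 13.1 in the labelled fer libraries (2.84, SE 0.111, adjusted p = 1.06e-09). Many of these genes are low, and only 2 were called higher among those kept by a filter at FPKM 5. Primary wall and cell expansion genes were higher in 11 of 13 tested of 17 (median 0.87). The expansin gene EXPA15 (AT2G03090) was at 0.108, 0.120 and 0.238 in WT, against 17.8, 17.2 and 17.42 in the labelled fer libraries (4.0, SE 0.118, adjusted p = 1.17e-10), with EXPA4 at 2.98, EXPA1 at 2.85 and the xyloglucan endotransglucosylase gene XTH4 at 2.59. Auxin genes were higher in 13 of 17 tested of 20 and lower in 1 (median 1.48), or in 2 with the AT2G01021 covariate. The repressors IAA1 and IAA7 rose by 2.27 and 2.09, and the transport genes PIN3 and AUX1 by 2.02 and 1.81. WES1 (AT4G27260), an enzyme that conjugates auxin to amino acids, was the member called lower, at 24.2, 24.1 and 23.7 in WT, against 5.81, 5.13 and 4.67 in the labelled fer libraries (-2.02, SE 0.0785, adjusted p = 1.07e-09). In ccr 15 auxin genes were higher and 1 lower than in the shared WT libraries, and in ccrfer 14 were higher and none lower. The medians were 1.38 and 1.25. Primary wall genes were higher than WT in 13 of 13 in ccr, and 12 were higher and 1 lower in ccrfer. In this bulk tissue, fewer cells of a type and less RNA per cell cannot be told apart, here and in the results that follow.

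Markers of other stem tissues were read beside these groups. Phloem markers split, 4 higher and 4 lower of 8 tested of 10 (median 0.11). The sieve element genes SEOR1 and SEOa rose by 2.57 and 1.91, while SUC2, the sucrose loader of companion cells, fell by 0.90 and PP2-A1 by 0.52. Epidermis and cuticle markers were higher in 7 of 10 tested of 12 and lower in 1 (median 0.65). That member was PDF2 (-0.35), and its call was lost without WT replicate 2 or 3 or fer replicate 1 and with the AT2G01021 covariate. Of the 7 flower organ markers only SHP1 was high enough to test, with a difference of 0.49 (adjusted p = 0.211), and AG, AP1, AP3, PI, SEP3 and LFY were at or below 0.64 FPKM in every library of the 2 groups. The part of tissue makeup in the results was not tested.

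Proteases and nucleases of developmental cell death were mostly lower, while XCP1 and XCP2 were higher. Of 8 genes 6 were lower and 2 higher, with a median of -1.71. CEP1 (AT5G50260), a KDEL-tailed cysteine protease, was at 85.6, 88.7 and 82.1 in WT, against 1.88, 3.08 and 2.095 in the labelled fer libraries (-4.71, SE 0.352, adjusted p = 3.34e-07). CEP2 (AT3G48340), its close relative, was at 49.5, 51.6 and 49.0 in WT, against 0.810, 0.304 and 0 in the labelled fer libraries (-5.26, SE 0.237, adjusted p = 3.71e-09). The metacaspase gene MC9 (AT5G04200) was at 127, 125 and 117 in WT, against 20.7, 23.5 and 25.2 in the labelled fer libraries (-2.37, SE 0.279, adjusted p = 1.85e-05), and the nuclease gene BFN1 fell by 2.07. The members called higher were the xylem cysteine proteases XCP2 (AT1G20850) and XCP1. XCP2 was at 0.366, 0.293 and 0.405 in WT, against 55.6, 52.5 and 57.8 in the labelled fer libraries (5.38, SE 0.0744, adjusted p = 1.78e-13), and XCP1 rose by 3.06. The same counts, 6 lower and 2 higher, were found in ccr and in ccrfer against the shared WT libraries. The medians there were -3.93 in ccr and -2.49 in ccrfer. Against ccr 5 of the 8 were higher in the libraries labelled fer and none lower, and against ccrfer 2 were higher and none lower.

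Senescence genes were lower in 13 of 17, with 1 higher and a median of -1.52. SAG12 (AT5G45890), a cysteine protease gene used as the classic marker of leaf senescence, was at 324, 337 and 320.5 in WT, against 7.76, 6.13 and 5.67 in the labelled fer libraries. No library labelled fer came near a WT library (-5.46, SE 0.0910, adjusted p = 9.39e-13). Its mean was 31.6 ± 1.45 in ccr and 44.9 ± 2.76 in ccrfer, and both exceeded the libraries labelled fer (-2.13 and -2.62, labelled fer minus each). NAP (AT1G69490), a NAC switch of senescence, was at 96.6, 92.8 and 88.3 in WT, against 3.47, 5.63 and 5.21 in the labelled fer libraries (-4.04, SE 0.127, adjusted p = 1.91e-10). NAC6, also known as ORE1, fell by 3.20, the glutamine synthetase gene GLN1;4 by 2.80, AT4G11910, a chlorophyll breakdown gene, by 2.57 and WRKY75 by 1.95. HAI1, a phosphatase gene of abscisic acid signalling, rose by 0.77. Most senescence genes were also lower than in the shared WT libraries in the other mutants. In ccr 13 were lower and 2 higher (median -1.36), and in ccrfer 15 were lower and 1 higher (median -1.40). Against ccr 10 senescence genes were lower and 1 higher, and against ccrfer 7 were lower and 3 higher.

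**Figure D3:**
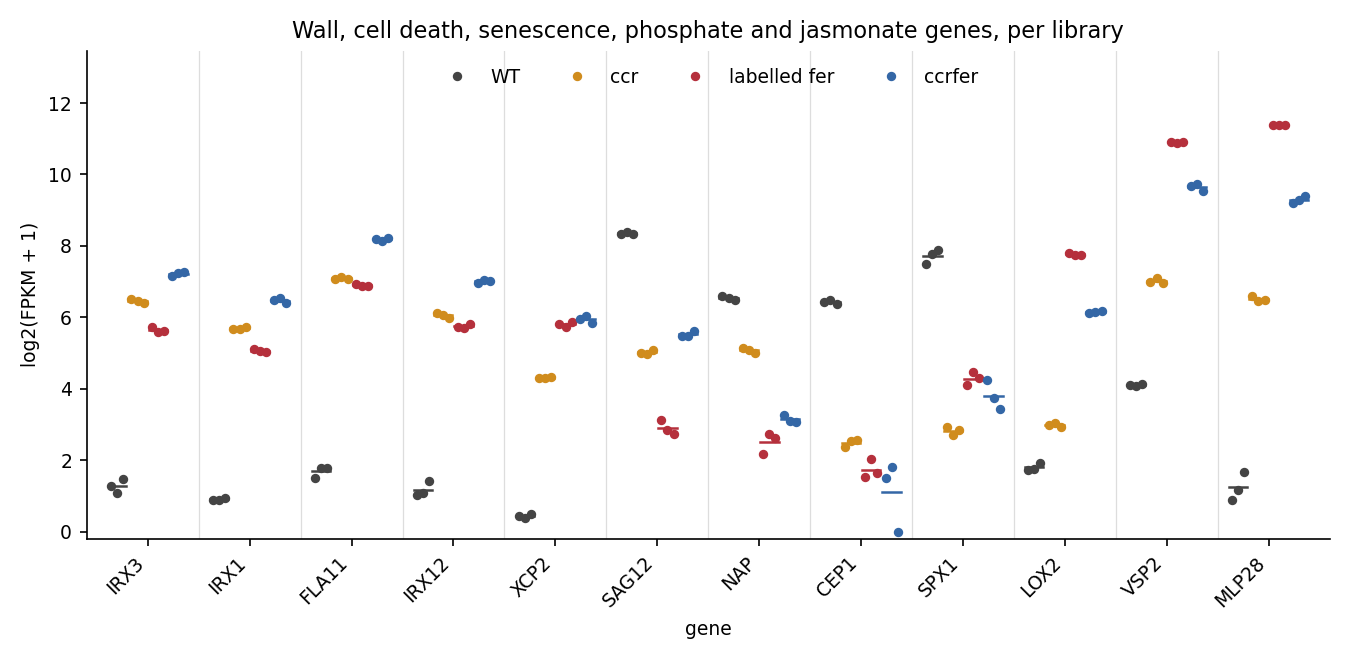
FPKM on a log2(FPKM + 1) axis for 12 genes of the wall, cell death, senescence, phosphate and jasmonate groups, with 1 point per library and a short line at the genotype mean. IRX3, IRX1, FLA11 and IRX12 stand up in ccr, the libraries labelled fer and ccrfer, SAG12, NAP, CEP1 and SPX1 stand highest in WT, and LOX2, VSP2 and MLP28 are highest in the libraries labelled fer.

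Phosphate starvation genes were lower in 14 of 15 tested of 16, with a median of -1.57. SPX1 (AT5G20150), a sensor protein gene that is switched on when phosphate runs short, was at 179.7, 218 and 236 in WT, against 16.0, 21.0 and 18.6 in the labelled fer libraries (-3.44, SE 0.178, adjusted p = 1.23e-08). MGDC (AT2G11810), which makes galactolipids that replace phospholipids, was at 60.7, 55.6 and 52.8 in WT, against 2.26, 2.77 and 1.64 in the labelled fer libraries (-4.17, SE 0.166, adjusted p = 1.29e-09). For both genes every library labelled fer lay below every WT library. The phosphate transporter gene PHT1;4 fell by 3.11, PHO1;H1 by 2.96, the sulfolipid gene SQD2 by 2.37 and the acid phosphatase gene PAP17 by 2.11. PHO1, which loads phosphate into xylem, rose by 0.33. In ccr and ccrfer all 15 tested genes were lower than in the shared WT libraries, and set directly against these genotypes 9 were higher in the libraries labelled fer each time, with 1 lower against ccr and 2 lower against ccrfer. The P1BS site, GNATATNC on either strand, was found before 4 of the 16 genes (25.0%) and before 5.46% of all genes.

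Clock genes went both ways. Of 18, 6 were higher and 11 lower, with a median of -0.60. LHY (AT1G01060), a morning MYB gene, was at 44.0, 40.3 and 39.8 in WT, against 343, 340.0 and 328 in the labelled fer libraries (3.00, SE 0.0520, adjusted p = 1.32e-12), and its partner CCA1 (AT2G46830) at 84.7, 80.1 and 79.2 in WT, against 263, 246 and 245 in the labelled fer libraries (1.61, SE 0.0497, adjusted p = 1.69e-10). PRR5 (AT5G24470), a repressor expressed later in the day, was at 33.4, 32.4 and 32.1 in WT, against 0.671, 2.59 and 0.535 in the labelled fer libraries (-4.004, SE 0.289, adjusted p = 2.41e-07). FKF1, a blue-light receptor gene, fell by 3.33 and the RNA-binding protein gene GRP7 by 2.60, while RVE8 and RVE1, MYB genes related to LHY, rose by 2.17 and 2.37. In ccr and in ccrfer 5 clock genes were higher and 11 lower than in WT. The clock genes' values move with the label beside every group above, and their part in those results was not tested.

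Jasmonate genes were higher in 14 of 19 tested of 20 and lower in 2, with a median of 1.63. VSP2 (AT5G24770), a vegetative storage protein gene switched on by jasmonate, was at 16.1, 15.9 and 16.6 in WT, against 1940, 1870 and 1906 in the labelled fer libraries (6.79, SE 0.0588, adjusted p = 1.46e-15). VSP1, a near copy that may share its reads, rose by 4.02. LOX2 (AT3G45140), the plastid lipoxygenase that starts jasmonate synthesis, was at 2.31, 2.40 and 2.81 in WT, against 221, 212 and 214 in the labelled fer libraries (5.95, SE 0.0672, adjusted p = 2.68e-14). In ccr LOX2 averaged 6.91 ± 0.301 and in ccrfer 70.1 ± 1.32, so the libraries labelled fer were highest of the 4 genotypes. JMT (AT1G19640), which methylates jasmonic acid, was at 0.433, 0.305 and 0.277 in WT, against 13.0, 12.5 and 13.3 in the labelled fer libraries (3.38, SE 0.319, adjusted p = 2.66e-06). The repressors of the pathway rose with it, JAZ10 by 3.63, JAZ5 by 3.08 and TIFY7 by 3.02. Summed over the list, the libraries labelled fer held 3409 to 3441 FPKM and WT 508.8 to 521.6. Against ccr 15 jasmonate genes were higher and none lower, and against ccrfer 14 were higher and 2 lower. Ethylene-jasmonate defence genes split, 2 higher and 2 lower of 4 tested of 5, with PR4 at 2.29 and the regulator ORA59 at -2.13.

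Genes of the ER body, a compartment of brassicas that stores beta-glucosidases, were higher in 5 of 5 (median 3.54). PYK10, the main beta-glucosidase, rose by 4.72, BGLU18 by 3.76 and the structural gene NAI2 by 3.54. None of the 5 was lower against ccr or ccrfer, and 5 and 2 were higher, respectively. Compared with the shared WT libraries, 1 of the 5 was higher in ccr (median 0.06) and 5 in ccrfer (median 3.55). The median labelled fer minus ccrfer difference was -0.0084, so the rise was shared with ccrfer. Glucosinolate genes were higher in 19 of 20 tested of 22, with a median of 1.33. MYB29 (AT5G07690), the regulator of aliphatic glucosinolates, was at 9.28, 9.71 and 10.3 in WT, against 168, 191 and 209.5 in the labelled fer libraries (4.14, SE 0.106, adjusted p = 4.35e-11). The myrosinase genes TGG2 and TGG1, whose enzymes cleave glucosinolates, rose by 6.25 and 5.45, and MBP1, a myrosinase-binding protein gene outside the list, by 5.45. MYB51, the regulator of indolic glucosinolates, was the member called lower (-1.22, SE 0.0886, adjusted p = 2.6e-07).

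MLP28 (AT1G70830), a major latex protein gene, had the largest difference among genes not listed at 0. It was at 0.850, 1.24 and 2.18 in WT, against 2685, 2698 and 2668 in the labelled fer libraries (10.15, SE 0.147, adjusted p = 2.61e-13). Its means of 90.2 ± 4.86 in ccr and 629 ± 45.7 in ccrfer lay between. Latex protein genes have near copies, so the split of reads among them is uncertain. Of 7 tested of 8 members, 4 were higher and 1 lower. Among the genes with the largest increases were also AT1G14250 (6.53) and NATA1 (6.39), an acetyltransferase gene induced by jasmonate.

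Flavonoid and anthocyanin genes were higher in 14 of 19 tested of 21 and lower in 2 (median 0.73). The anthocyanin regulator MYB113 rose by 4.06, the glycosyltransferase gene UGT78D1 by 2.21 and F3H by 1.75. MYB90, another anthocyanin regulator, fell by 1.07, and MYB12, a flavonol regulator, by 0.51, a call lost without WT replicate 3. Against ccr 17 were higher and 1 lower.

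**Figure D4:**
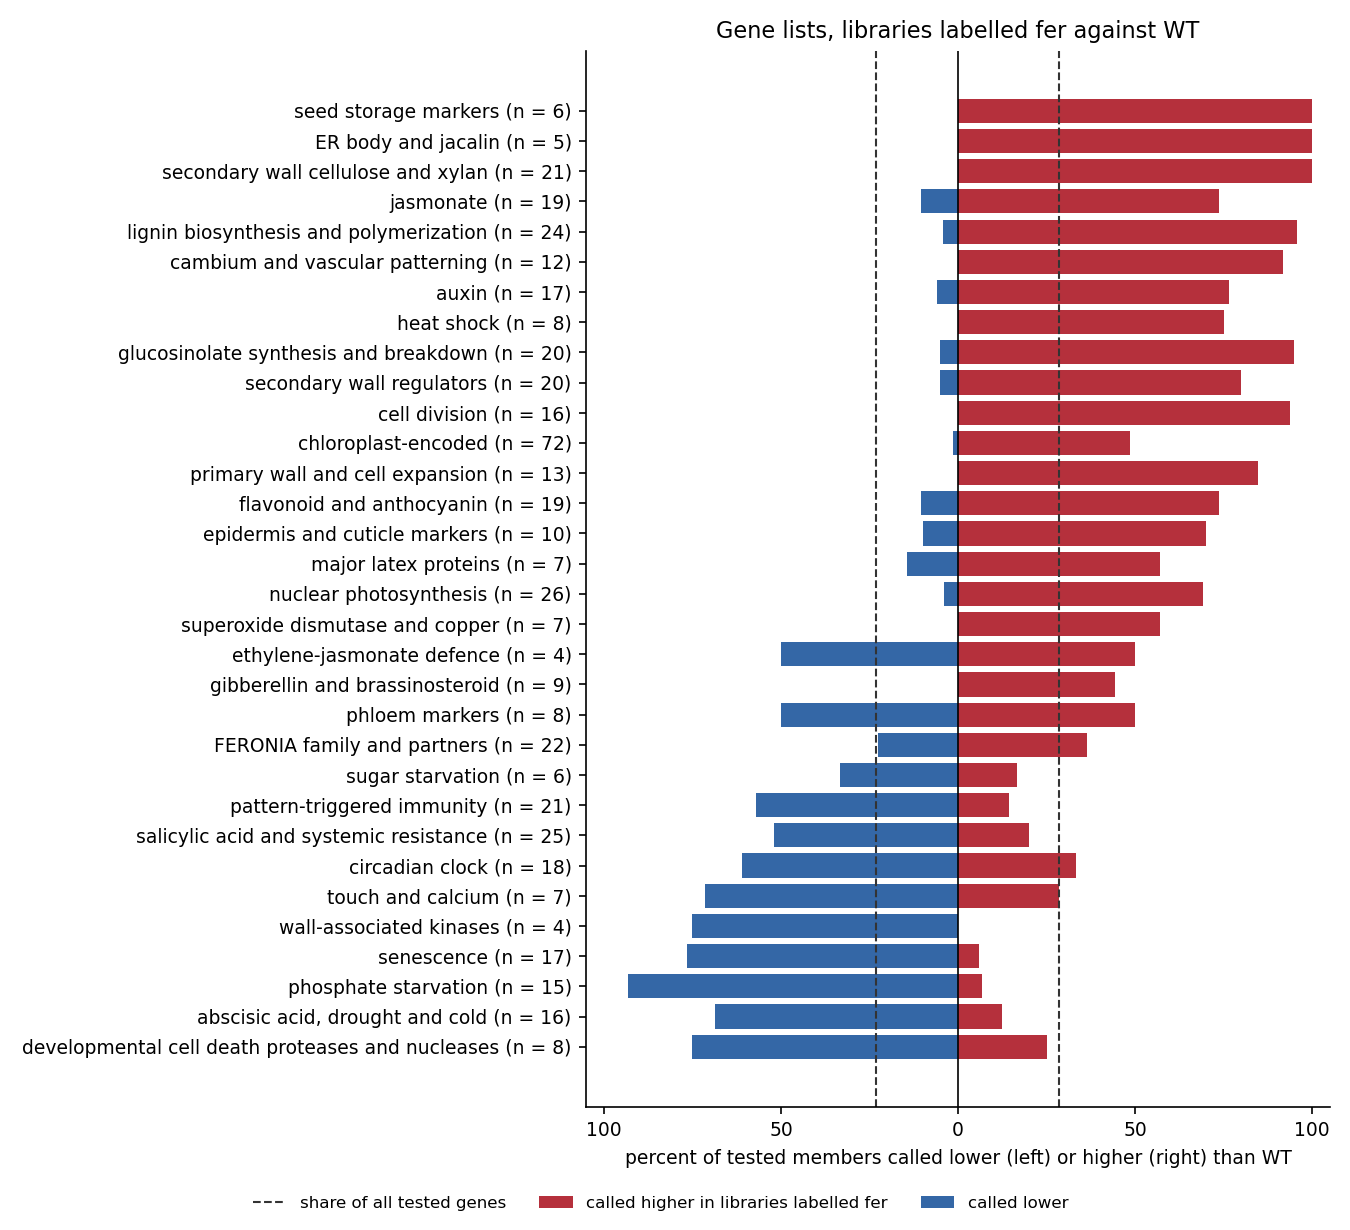
For each gene group with at least 4 tested members, bars give the percent of tested members called higher (right, red) or lower (left, blue) in the labelled fer libraries than in WT, in order of the median difference, and dashed lines mark the 28.4% and 23.2% of all tested genes. Secondary wall, lignin, cambium, glucosinolate and ER body bars pass far to the right of the dashed line, and phosphate starvation, senescence and developmental cell death bars far to the left.

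Salicylic acid and systemic resistance genes were lower in 13 of 25 tested of 27 and higher in 5 (median -0.41). WRKY54 (AT2G40750), a salicylic acid-responsive factor, was at 27.5, 27.3 and 27.1 in WT, against 3.59, 3.10 and 5.74 in the labelled fer libraries (-2.49, SE 0.192, adjusted p = 4.46e-07). CBP60G and SARD1, the factors that drive salicylic acid synthesis, fell by 1.82 and 1.63, ACD6 by 1.79 and AZI1, a gene of systemic priming, by 1.57. WRKY62 rose by 1.99. PR1, the usual marker of the pathway, had a difference of 0.48 (adjusted p = 0.14) and no call, which it gained with the AT2G01021 covariate. BGL2 (PR2) was called higher by 0.56, a call lost after quantile normalization, under which 3 members in all were called higher. Set against ccr and ccrfer, the counts went opposite ways, with 16 lower and 1 higher against ccr and 14 higher and none lower against ccrfer.

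Pattern-triggered immunity genes were lower in 12 of 21 tested of 23 and higher in 3 (median -0.36). FLS2 (AT5G46330), the receptor for bacterial flagellin, was at 11.2, 13.4 and 11.4 in WT, against 2.64, 1.30 and 2.84 in the labelled fer libraries (-2.03, SE 0.176, adjusted p = 1.28e-06). WRKY33 fell by 1.56, the kinase gene MPK3 by 1.27 and the receptor gene RLP23 by 1.15, and PEPR2, a receptor of wound peptides, rose by 1.42. The number called higher was 5 with the AT2G01021 covariate. Against ccr and ccrfer the counts again went opposite ways, with 14 lower and 1 higher against ccr and 7 higher and 2 lower against ccrfer. The W-box form TTGACC, on either strand, was found before 7 of the 23 genes (30.4%), before none of the 27 salicylic acid genes and before 12.2% of all genes. Other forms of the W-box were not searched, so these counts do not show where W-boxes are absent.

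Wall-associated kinases, receptors that bind pectin, were lower in 3 of 4 tested of 5. Compared with the shared WT libraries, 1 was lower in ccr and 3 in ccrfer, and none was higher. Set directly against ccr, 3 were lower in the libraries labelled fer, and against ccrfer 1 was higher and 1 lower. WAK1 (AT1G21250) was at 121, 118 and 119 in WT, against 51.6, 49.4 and 52.4 in the labelled fer libraries (-1.20, SE 0.0698, adjusted p = 3.33e-08), WAK2 fell by 1.45 and WAK3 by 0.91. Touch and calcium genes were lower in 5 and higher in 2 of 7 tested of 8, and CML38, a calmodulin-like gene, fell by 2.75 and TCH3 by 0.68. The number called lower was 3 without WT replicate 2, WT replicate 3 or fer replicate 3, 3 with the AT2G01021 covariate and 2 with a pseudocount of 0.1, and the number called higher was 1 without any one of those libraries and with the covariate.

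FERONIA's own family and partners showed no common direction, 8 higher and 5 lower of 22 tested of 29, near the background shares, with a median of 0.06. Among ligands, RALF1 rose by 2.63 and RALFL34 by 1.54. AT3G24480, a leucine-rich repeat extensin gene whose protein binds RALF peptides in the wall, rose by 1.96, and AT3G51800, which encodes a partner that FERONIA phosphorylates, by 0.97. The related receptor kinase genes AT5G39020 and AT5G39030 fell by 1.68 and 0.89. THE1, the wall-sensing relative, was called higher (0.57, SE 0.182, adjusted p = 0.0207), a call lost without WT replicate 1, WT replicate 2 or fer replicate 3, with the AT2G01021 covariate and after quantile normalization. HERK1, another relative, had a difference of -0.10 (adjusted p = 0.39). With a filter at FPKM 5, which tests fewer genes, 4 members were called higher.

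Genes were next sought that set the libraries labelled fer apart from all 3 other genotypes, called in the same direction against WT, ccr and ccrfer with no overlap of libraries. There were 1782 such genes on the higher side (9.67% of those tested) and 1218 on the lower side (6.61%). The 10 with the widest gap on each side were named. The counts of genes set apart were not repeated under the alternative fits. They rest in part on calls against ccrfer, 3930 higher and 3551 lower. With only the compared genotypes in the fit these calls were 2442 and 1938.

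Seed storage genes were among those on the higher side. SESA3 (AT4G27160), a 2S albumin gene, was listed at 0 in WT and stood at 57.9, 56.1 and 68.2 in the labelled fer libraries. CRU3 (AT4G28520) and CRA1 (AT5G44120), genes of 12S globulins, were listed at 0 in WT and stood at 27.2, 31.3 and 29.6 and at 12.2, 12.8 and 10.6. OLEO1 (AT4G25140), the oil body oleosin gene, was listed at 0 in WT and stood at 9.61, 10.7 and 12.4. All 6 seed storage markers passed the filter through the libraries labelled fer, where they are high, so their count carries no weight of its own. Summed over the list, FPKM was 113.9 to 126.9 in the libraries labelled fer, 0 to 0.171 in WT, 0.733 to 1.85 in ccr and 0 to 1.01 in ccrfer. CRU2, SESA2 and SESA4 were also listed at 0 in WT. The 2S albumin genes are near copies of each other, and the split of reads among them is uncertain. The flower organ markers above were at or near 0, the labels speak of stems only, and the part of seed or fruit tissue was not tested.

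AT2G30766 was also on the higher side, at 4.04, 3.40 and 2.59 in WT, against 26.1, 29.1 and 32.3 in the labelled fer libraries (2.81, SE 0.175, adjusted p = 6.53e-08), as were RR3 and ATCG00490, whose values of 0 in the other genotypes are given above. Heat shock genes were higher in 6 of 8 tested of 11 (median 1.36). HSP70 (AT3G12580), a chaperone gene, was at 29.6, 26.9 and 26.9 in WT, against 159.8, 158 and 150.5 in the labelled fer libraries (2.45, SE 0.0896, adjusted p = 6.3e-10), with 20.0 ± 1.10 in ccr and 13.9 ± 2.01 in ccrfer. HSP101, HSP90.1 and the factor HSFA2 rose by 1.84, 1.82 and 1.63. Against ccr 5 heat shock genes were higher and 1 lower, and against ccrfer 7 were higher.

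Cold and drought genes were mostly lower. Of 16 tested of 19 genes of abscisic acid, drought and cold, 11 were lower and 2 higher, with a median of -1.67. LTI30 (AT3G50970), a dehydrin gene, was at 54.9, 58.9 and 54.4 in WT, against 1.21, 2.74 and 1.68 in the labelled fer libraries (-4.34, SE 0.146, adjusted p = 3.21e-10). LTI78 (AT5G52310), also known as RD29A, was at 39.95, 38.2 and 37.0 in WT, against 1.00, 0.692 and 1.19 in the labelled fer libraries (-4.34, SE 0.1004, adjusted p = 1.71e-11). DREB1A (AT4G25480), the factor CBF3 that switches on cold genes, was at 14.8, 15.8 and 15.8 in WT, against 0.197, 0 and 0.220 in the labelled fer libraries (-3.86, SE 0.390, adjusted p = 5.03e-06). Its means were 5.89 ± 0.0319 in ccr and 4.42 ± 3.11 in ccrfer. The targets COR47, COR15A and ERD10 fell by 2.97, 2.48 and 2.18. P5CS1, the proline synthesis gene, and RD22 were higher, by 1.86 and 0.57. Against ccr 15 of the 16 were lower and none higher, and against ccrfer 13 were lower and 1 higher.

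The lower side of the genes set apart held GPT2 (AT1G61800), the glucose-phosphate translocator of plastids. GPT2 was at 17.1, 18.1 and 17.58 in WT, against 2.57, 2.51 and 2.59 in the labelled fer libraries (-2.39, SE 0.0646, adjusted p = 6.19e-11). Its means were 63.3 ± 3.34 in ccr and 67.3 ± 3.07 in ccrfer. The starch debranching enzyme gene ISA3 fell by 3.604 against WT, the transporter gene UMAMIT14 by 2.83, OPR2 by 2.58, GSTU24, a glutathione transferase gene, by 2.06 and the reductase gene ChlAKR by 1.90. AT1G05270 and AT5G58570 fell by 2.64 and 2.59.

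**Figure D5:**
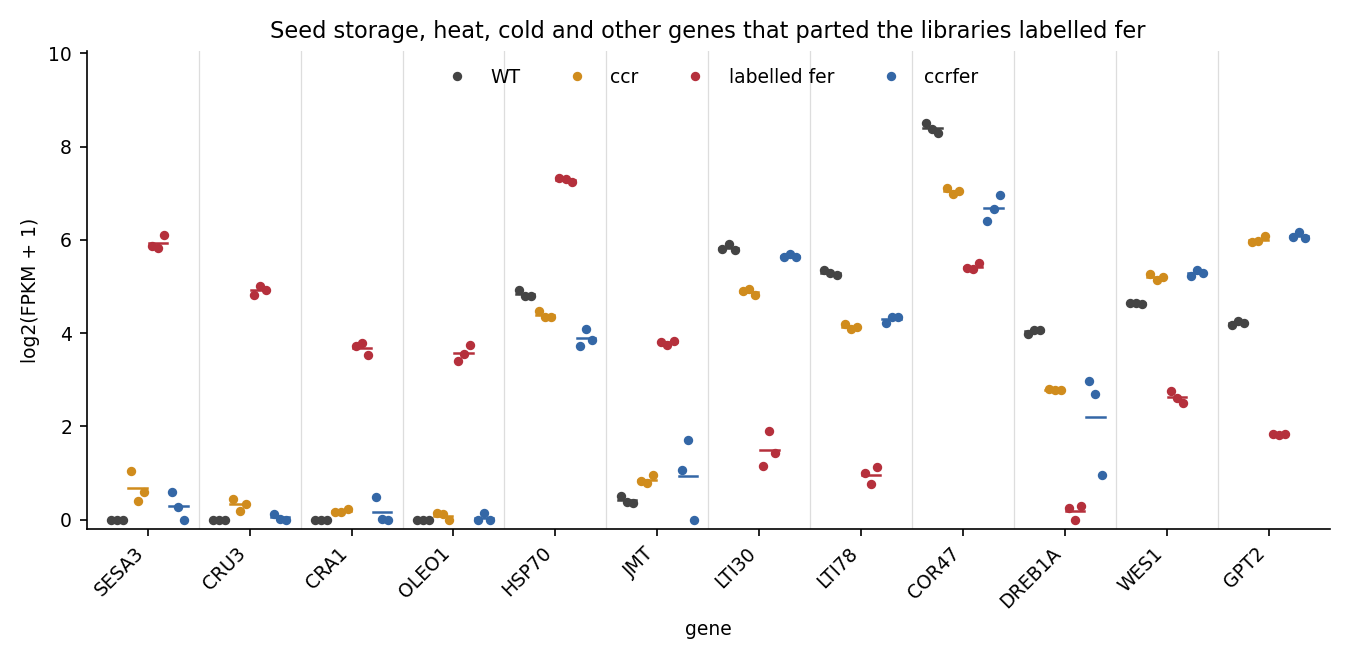
FPKM on a log2(FPKM + 1) axis for 12 genes of seed storage, heat, cold, jasmonate, auxin and sugar transport, with 1 point per library and a short line at the genotype mean. SESA3, CRU3, CRA1 and OLEO1 stand up only in the libraries labelled fer, and LTI30, LTI78, COR47 and GPT2 are lowest there.

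Nuclear photosynthesis genes were higher in 18 of 26 and lower in 1, with a median of 0.48, and this count depended on scaling. After quantile normalization 10 were higher and 4 lower. RBCS3B, a gene of the small subunit of Rubisco with near copies, rose by 1.84, the antenna gene LHCB3 by 1.38, and the plastocyanin genes PETE1 and DRT112 by 1.19 and 1.19. PSBR (AT1G79040), a photosystem subunit gene, was the member called lower, at 1832, 1789 and 1684 in WT, against 1332, 1393 and 1332 in the labelled fer libraries (-0.39, SE 0.0754, adjusted p = 0.00102). Against ccr 25 were higher and against ccrfer 26. Of the chloroplast-encoded genes above 0 in all 12 libraries, 32 of 65 were higher and none lower (median 0.89). The count over the whole list moved with the covariate and with scaling. Of all 72 tested, 35 were higher and 1 lower, but 22 were higher with the AT2G01021 covariate, and 18 higher and 9 lower after quantile normalization.

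Smaller groups are given by their counts. Superoxide dismutase and copper genes were higher in 4 of 7, with CSD2 at 1.32. FSD1 (AT4G25100), the iron superoxide dismutase gene, was at 77.3, 71.7 and 77.4 in WT, against 129.9, 128 and 142 in the labelled fer libraries (0.81, SE 0.139, adjusted p = 0.000395), whereas in ccr it averaged 0.596 ± 0.269. Gibberellin and brassinosteroid genes were higher in 4 of 9 tested of 13, led by the brassinosteroid synthesis genes BR6OX2 (2.096) and CPD (1.31). Sugar starvation genes had 1 higher and 2 lower of 6 tested of 7, ASN1, an asparagine synthetase gene, at 1.47, AT3G59940 at -1.77 and BCAT-2 at -1.62.

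Genes switched between near absence and clear expression were counted by a fixed rule. It asked for all 3 libraries of one group under 0.5 FPKM and all 3 of the other at 5 or more. By this rule 15 genes were off in the libraries labelled fer and 59 were off in WT. The libraries differed in how many of all genes were listed at exactly 0. These numbered 6444, 6686 and 6319 in WT and 6318, 8216 and 7625 in the libraries labelled fer. Besides the neighbours DGAT2 and AT3G51530, the 15 included DREB1A, GolS3, an enzyme gene of cold-induced raffinose sugars, UMAMIT14, CIPK17, FBA5 and CIB1. AT4G03157 was at 54.9, 57.2 and 103 in WT, against 0, 0 and 0 in the labelled fer libraries, so it was listed at 0 in the whole group, as were 2 others of the 15. Among the 59 were the laccase gene LAC11, the expansin gene EXPA15, XCP2 and the xylan genes IRX15 and PGSIP1. AAE12 rose by 5.08, AT1G72140 by 5.17 and JAL33, a jacalin-like lectin gene, by 4.62. Of these 59, 15 were listed at exactly 0 in all WT libraries, CAT3, RR3 and the seed storage genes among them.

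The largest decreases outside the groups above were those of AT1G11210 (-4.82), AT5G19890 (-4.77), the kinase gene CIPK25 (-4.53), AT5G39520 (-4.41), AT4G04460 (-4.40), MEE14 (-4.32), NAC047 (-4.21) and AT3G62550 (-4.19). The authors' deposited table names 313 genes with a mean FPKM per genotype. In the present fit 310 of them were tested, 156 were higher and 38 lower in the labelled fer libraries than in WT, and their median difference was 0.51. The p-value columns of that table are for ccr against WT and for ccr against ccrfer, so its genes were listed on comparisons that share these WT libraries, and the counts are not independent of that choice.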

How the data were processed

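The submitters' processing notes name the build TAIR10 and the tools Bowtie2 2.3.2.0, TopHat2 2.1.1, Cufflinks 2.2.1 and Cuffdiff. Gene models came from Araport11, as the header of the read report states. The authors deposited FPKM values for 27655 genes in 12 libraries, and whether these include scaling between libraries or use strand was not given in the sources used here. A second deposited table held mean FPKM of 313 genes, and these means agreed within 1% with the means of the library values. The authors' read report gave counts of reads and the mapped fraction per library. Counts for single genes were not used here. Their counting error is therefore unknown, and FPKM was tested on a log scale.

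From the FPKM, log2(FPKM + 1) was computed, and limma 3.58.1 (R 4.3.3) was fitted to the 12 libraries together, with 1 mean for each genotype, empirical Bayes moderation with a trend and two-sided tests. The pseudocount understates differences of low genes. The fit was tested on simulated data with independent noise for each gene. The simulation held no shift of a whole library, so it does not cover differences such as that of AT2G01021. The members, the 33 gene lists and the naming rule were set with earlier results of these data known. Named genes were FER, CCR1, the 6 genes on each side of FER, the 15 largest called differences each way, up to 6 members of each list, genes on or off by the rule given, and 10 genes each way that parted the libraries labelled fer from all other genotypes. List members cited for their role beside these were chosen after their values were seen. Symbols and promoter sequences came from RefSeq TAIR10.1, which held 27445 of the identifiers. The 15 alternatives changed the pseudocount, filter, scaling, covariate, model or libraries.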

Additional observations from a re-analysis of the deposited data

How the results depend on the processing

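Under the 15 alternatives the number of genes called higher than WT in the labelled fer libraries lay between 4303 (filter at FPKM 5) and 5544 (only the compared genotypes in the fit), and the number called lower between 3653 (without WT replicate 2) and 4761 (quantile normalization). Leaving out single libraries gave 4575 to 4942 higher and 3653 to 4096 lower. Quantile normalization moved the share of higher calls from 55.0% to 49.3% and reversed 5 small differences, those of LHCA1 (AT3G54890) to -0.12, LHCA4 (AT3G47470) to -0.0906, LHCB5 (AT4G10340) to -0.0167, RCA (AT2G39730) to -0.0398 and DFR (AT5G42800) to -0.0362. With only the compared genotypes in the fit, 2442 genes were called higher and 1938 lower than in ccrfer, against 3930 and 3551 with all libraries. The same change gave 4313 higher and 3768 lower than in ccr, against 3782 and 3403. Replicate 3 of ccrfer correlated at 0.938 and 0.939 with the other ccrfer libraries, which correlated at 0.983. Without it, 4191 genes were called higher and 3988 lower than in ccrfer. The cause of the lower counts was not tested.

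Same-numbered libraries were not paired by their values, with correlations of deviations of 0.191, -0.048 and 0.037 for the 3 numbers. A fit with a replicate block gave 5165 higher and 4206 lower. Of 555 genes examined singly, the replicate block ended 3 calls and added 3, the AT2G01021 covariate ended 26 and added 16, and leaving out 1 library ended 13 to 20. The cause of these changes was not tested. The depth per gene is unknown, so no counting error can be given for single genes.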

Other observations

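Iron homeostasis and starch breakdown genes were grouped after their values were seen, so the counts are descriptions. Of 25 iron genes 19 were tested, and 12 were higher and 4 lower in the labelled fer libraries than in WT (median 0.83, beside 0.04 for all genes). The small peptide genes AT1G47395 and AT1G47400 rose by 3.58 and 3.40. NAS4 (AT1G56430), a nicotianamine synthase gene whose product carries iron, had an FPKM of 11.1, 11.1 and 11.2 in WT, against 89.3, 87.7 and 79.1 in the labelled fer libraries. The libraries labelled fer lay far above WT (2.83, SE 0.296, adjusted p = 6.71e-06 on the log2(FPKM + 1) scale, limma), and the means were 8.33 ± 0.3998 in ccr and 6.97 ± 3.76 in ccrfer. NAS1 rose by 3.23, BTS, a regulator of the iron response, by 1.93 and the transporter gene OPT3 by 1.33. The iron reductase gene FRO2 fell by 2.03, NAS3 by 1.62 and the ferritin gene AT5G01600 by 0.66. Against ccr 11 iron genes were higher and 3 lower, and against ccrfer 12 were higher and 4 lower.

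Starch breakdown genes were lower in 14 of 17 and higher in 2, with a median of -2.05. PHS2 (AT3G46970), a cytosolic glucan phosphorylase gene, was at 243, 239 and 224 in WT, against 17.8, 18.1 and 17.65 in the labelled fer libraries (-3.65, SE 0.0516, adjusted p = 2.1e-13), with means of 58.8 ± 1.62 in ccr and 99.05 ± 3.86 in ccrfer. SEX1 (AT1G10760), the glucan dikinase that opens starch granules to attack, was at 109, 108 and 104 in WT, against 21.9, 19.2 and 19.9 in the labelled fer libraries (-2.34, SE 0.0626, adjusted p = 5.58e-11). No libraries overlapped for either gene. DPE1 fell by 2.64, AMY3 by 2.63, SEX4 by 2.39 and DPE2 by 2.05, while the amylase genes BAM5 and BMY3 rose by 2.29 and 1.79. Against ccr 13 were lower and 2 higher, and against ccrfer 13 were lower and 1 higher.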
